A study of Homo sapiens with 10 samples.

Results

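AP-1 is a family of dimeric transcription factors, and the 10 human genes described here encode JUN family members (JUN, JUNB, JUND), FOS family members (FOS, FOSB, FOSL1, FOSL2) and related basic leucine zipper proteins (ATF3, BATF3, MAFF). They were chosen by symbol, and each of the 10 symbols matched 1 of the 58051 gene rows in both count tables. All 10 passed the filter on low counts in the paired-end libraries. RNA was sequenced from HAP1 cells, a near-haploid human line derived from KBM-7 cells. The groups were RBM4 knockout clone 1 (n = 3 libraries), RBM4 knockout clone 2 (n = 2) and wild type (n = 3), all read paired-end, and 1 RBM4 knockout library and 1 wild type library read single-end. RBM4 is an RNA-binding protein that acts in splicing and translation. Each clone is 1 line, cells were grown in serum-containing medium, and the labels name no other treatment. The sources used here do not say how the knockout was made or which clone gave the single-end library. The study set out, by its title, to find genes whose expression differs between knockout and wild type cells.

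JUN proteins pair with each other or with FOS proteins, and the pairs bind short palindromic DNA sites in promoters and enhancers. FOS proteins need a JUN partner to bind DNA well. Many of these genes are immediate early genes, transcribed within minutes of growth factor or stress signals through kinases of the ERK, JNK and p38 families. JUN is known to activate its own promoter through an AP-1-like site, and ATF3 is induced by many stresses. MAFF belongs to the small MAF proteins, which lack a transactivation domain and pair with CNC and BACH proteins. BATF3 is best known from immune cells, where it pairs with JUN proteins.

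Promoter windows from RefSeq (GRCh38.p14, 250 bases before to 50 bases after the start) were found for 8 of the 10 genes, with FOSL1 and BATF3 not matched. They were searched on both strands for TGANTCA (the AP-1 site TGACTCA with any middle base) and TGACGTCA (the cyclic AMP response type). TGACATCA (the type in the JUN promoter) and the CArG box, the site of serum response factor, were searched as well. No window held more than 1 match, so no matches overlapped. Of 35116 RefSeq windows of the same length, 7.71% held TGANTCA, 1.85% TGACGTCA, 2.61% TGACATCA and 1.29% a CArG box. Matches are shown for each gene that had 1: JUN and FOSL2 (the largest differences), JUND and ATF3 (smaller called differences) and MAFF (not called). ATF3 and MAFF had 2 windows each, with a match in 1 of them. The motif was TGACATCA in JUN and ATF3, TGACGTCA in JUND and MAFF, and TGANTCA in FOSL2. Its part in the differences was not tested. Capitals mark the motif, and each sequence is written 5′ to 3′ on the strand of the gene.
JUN, chr1:58784096-58784125, minus strand: aggccttggggTGACATCAtgggctatttt
FOSL2, chr2:28392851-28392879, plus strand: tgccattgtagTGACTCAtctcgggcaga
ATF3, chr1:212565273-212565302, plus strand: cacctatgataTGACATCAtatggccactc
MAFF, chr22:38201929-38201958, plus strand: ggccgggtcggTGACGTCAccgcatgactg
JUND, chr19:18281623-18281872, minus strand: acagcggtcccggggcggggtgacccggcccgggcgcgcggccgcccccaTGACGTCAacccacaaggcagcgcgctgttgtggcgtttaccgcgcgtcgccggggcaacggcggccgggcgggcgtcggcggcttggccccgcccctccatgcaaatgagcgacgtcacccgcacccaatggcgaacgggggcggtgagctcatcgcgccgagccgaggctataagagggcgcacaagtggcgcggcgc

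The JUN match lay at -67 to -60 from the RefSeq start and the ATF3 match at -123 to -116 from the first of 2 starts. The FOSL2 match lay at 5 to 11, just inside the transcript. The JUND match was at -200 to -193, and the MAFF match at -54 to -47 from the first of 2 starts. None of the 4 motifs was found in the windows of JUNB, FOS and FOSB, nor in the second windows of ATF3 and MAFF. A match is a run of letters, and no binding was measured here.

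The paired-end libraries held 33192095 to 55617525 counts each. RBM4 itself was at 22.3, 22.9 and 24.5 CPM in the clone 1 libraries and 25.3 and 25.8 CPM in those of clone 2, against 79.8, 79.8 and 78.7 CPM in wild type, with a log2 fold change of -1.70 (SE 0.0481, edgeR adjusted p = 1.11e-10). CPM are counts scaled to library size, with TMM factors applied in the paired-end libraries. Of the haematopoietic markers, GATA1, MPO and HBG1 were at 0 in all 8 paired-end libraries, and 13 of 16 stayed below 1 CPM. The fibroblast markers COL1A2, DCN and LUM and the epithelial marker KRT5 were also at 0. Of 7 fibroblast markers tested, 3 were called higher and 1 lower by edgeR: PDGFRA averaged 1.59 CPM in clone 1 and 39.2 CPM in clone 2, against 0.940 CPM in wild type, COL1A1 19.7 and 26.3 CPM, against 13.4 CPM in wild type, S100A4 3.81 and 4.56 CPM, against 2.44 CPM in wild type, and VIM 397 and 416 CPM, against 466 CPM in wild type. The 14 fibroblast markers summed to 402 to 466 CPM in clone 1 and 497 CPM in both clone 2 libraries, against 483 to 518 CPM in wild type, and 7 of them stayed below 1 CPM. The part of these markers in the AP-1 results was not tested. In bulk RNA, fewer cells of a type and less RNA per cell cannot be told apart.

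JUN and FOSL2 rose most among the AP-1 genes, JUN 3.04-fold and FOSL2 2.59-fold in the mean of the clones over wild type. JUND and ATF3 rose by smaller amounts, and the other 6 did not pass the test. In all, 4 of the 10 AP-1 genes were called higher and 0 lower at an adjusted p below 0.05 by edgeR's quasi-likelihood test, and 7 had an unadjusted p below that value. Over all 20747 features tested, 9.87% were called higher and 8.09% lower. The median log2 fold change was 0.34 over the AP-1 genes and 0.00 over all features. All medians here are without the GC offset per library that is used further on. With that offset the values were lower for JUN (1.48), FOSL2 (1.29), JUND (0.18), JUNB (0.03), FOS (0.29), FOSB (0.22), MAFF (0.28) and FOSL1 (-0.25). ATF3 was at 0.33 and BATF3 at -0.08. All 5 knockout libraries lay above all 3 wild type libraries for JUN, JUND, FOS, FOSL2 and ATF3, an arrangement seen in 13.5% of all features, and for no AP-1 gene did all lie below (11.8% of features).

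**Figure D1:**
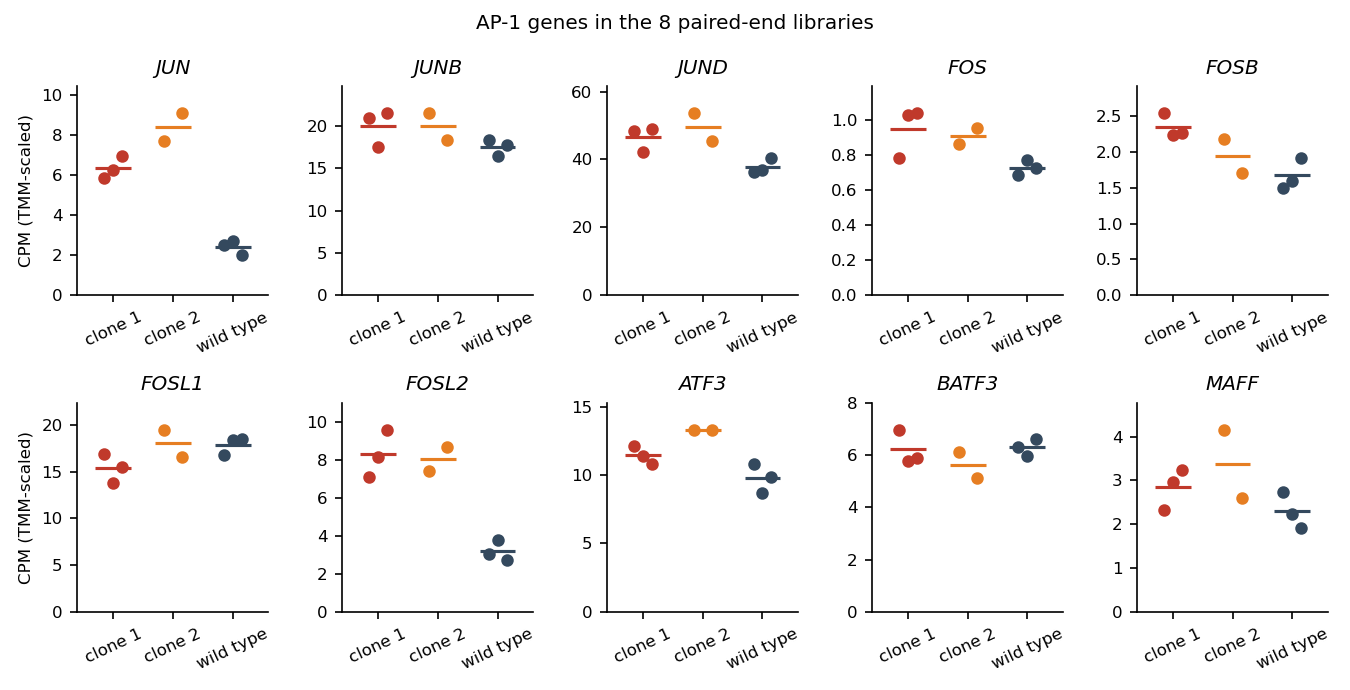
Levels of the 10 AP-1 genes in CPM (TMM-scaled) in each paired-end library of clone 1, clone 2 and wild type, with lines at the group means and axes starting at 0. JUN and FOSL2 show knockout libraries far above the wild type ones, while FOSL1 and BATF3 show overlapping groups.

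JUN (ENSG00000177606, chromosome 1, 58780788 to 58784327, minus strand, 1 exon; coordinates here are from GENCODE 29 on GRCh38) encodes the main transactivating partner of FOS proteins. Its level was 5.86, 6.24 and 6.94 CPM in the clone 1 libraries and 7.72 and 9.10 CPM in those of clone 2, against 2.52, 2.71 and 2.01 CPM in wild type. Every clone 2 library was above every clone 1 library, and the lowest knockout library was above the highest wild type one. These values rest on 194 to 428 reads per knockout library and 83 to 106 per wild type library. The log2 fold change was 1.60 (SE 0.127, edgeR adjusted p = 1.79e-06), 1.40 in clone 1 (adjusted p = 1.82e-05) and 1.81 in clone 2 (adjusted p = 2.41e-06). Clone 2 exceeded clone 1 by 0.41 on the log2 scale, which was not called (SE 0.136, unadjusted p = 0.0104, edgeR adjusted p = 0.248).

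JUND (ENSG00000130522, chromosome 19, 18279760 to 18281622, minus strand, 1 exon) encodes a JUN protein that is present in resting cells and often opposes JUN in growth control. It was at 48.4, 42.3 and 49.0 CPM in the clone 1 libraries and 53.6 and 45.3 CPM in those of clone 2, against 36.2, 37.0 and 40.4 CPM in wild type. The groups did not overlap, but the gap between 42.3 and 40.4 CPM was small. The log2 fold change was 0.34 (SE 0.0714, edgeR adjusted p = 0.00522). It was called in clone 1 (0.30, adjusted p = 0.0211) and in clone 2 (0.39, adjusted p = 0.0115). JUND has the highest GC content of the 10 genes (69.7%), and the rank correlation of level with GC over genes ran from -0.05 to 0.39 in the knockout libraries and from -0.41 to -0.25 in the wild type libraries. With a GC offset per library the log2 fold change of JUND was 0.18 (edgeR adjusted p = 0.0175), and that of clone 1 was 0.13 and no longer called (adjusted p = 0.118). The clone 1 call was also lost without wild type replicate 1 or 2 (adjusted p = 0.110 and 0.0886) and without replicate 1 or 3 of clone 1 (0.0531 and 0.0723). The clone 2 call was lost without wild type replicate 1 (0.0594) or clone 2 replicate 1 (0.184).

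JUNB (ENSG00000171223, chromosome 19, 12791496 to 12793315, plus strand, 1 exon) encodes a JUN protein with weaker transactivation. It was at 20.9, 17.5 and 21.5 CPM in the clone 1 libraries and 21.5 and 18.4 CPM in those of clone 2, against 18.3, 16.4 and 17.8 CPM in wild type. The ranges of knockout and wild type overlapped, and the log2 fold change of 0.19 was not called (SE 0.0835, edgeR adjusted p = 0.144). Its GC content was 64.9%, and the GC offset gave 0.03 (adjusted p = 0.785). JUNB shares 259 exon bases with HOOK2 on the other strand, and the sources used here do not say whether counting used strand, so its counts are uncertain.

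FOSL2 (ENSG00000075426, chromosome 2, 28392448 to 28417312, plus strand) encodes a FOS family protein without the strong transactivation domain of FOS. Its level was 7.13, 8.18 and 9.60 CPM in the clone 1 libraries and 7.43 and 8.69 CPM in those of clone 2, against 3.02, 3.77 and 2.74 CPM in wild type. The clones overlapped each other and lay above wild type in every library. The log2 fold change was 1.37 (SE 0.136, edgeR adjusted p = 1.28e-05), 1.40 in clone 1 (adjusted p = 3.32e-05) and 1.35 in clone 2 (adjusted p = 8.26e-05). The difference between the clones was -0.04 (SE 0.150, adjusted p = 0.977). JUN and FOSL2 were called in both clones and in the mean of the clones under every alternative run.

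FOSL1 (ENSG00000175592, chromosome 11, 65892049 to 65900573, minus strand) encodes the closest relative of FOSL2 in this family. It was at 16.9, 13.8 and 15.5 CPM in the clone 1 libraries and 19.5 and 16.6 CPM in those of clone 2, against 16.8, 18.4 and 18.5 CPM in wild type. Clone 2 spanned wild type, and 2 of the 3 clone 1 libraries lay below it. The log2 fold change of -0.11 was not called (SE 0.0828, edgeR adjusted p = 0.417). With the GC offset it was -0.25 and called (adjusted p = 0.0257), and in the 5 libraries with sample numbers 1 to 5, a set defined further on, it was 0.02 (adjusted p = 0.907). In clone 1 alone the difference of -0.22 was not called (adjusted p = 0.119), but it was called with the GC offset (-0.38, adjusted p = 0.00528) and without clone 1 replicate 1 (-0.31, adjusted p = 0.0391).

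FOS (ENSG00000170345, chromosome 14, 75278774 to 75282230, plus strand), the classic serum-induced immediate early gene, was the lowest of the 10. It was at 0.786, 1.03 and 1.04 CPM in the clone 1 libraries and 0.866 and 0.956 CPM in those of clone 2, against 0.689, 0.771 and 0.727 CPM in wild type. These levels rest on 26 to 57 reads in each library. Although the groups did not overlap, the log2 fold change of 0.36 had an SE of 0.203 and was not called (edgeR adjusted p = 0.246).

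FOSB (ENSG00000125740, chromosome 19, 45467995 to 45475179, plus strand), another immediate early gene, was at 2.54, 2.24 and 2.27 CPM in the clone 1 libraries and 2.18 and 1.70 CPM in those of clone 2, against 1.50, 1.60 and 1.92 CPM in wild type. Clone 1 lay wholly above wild type and clone 2 overlapped it. Neither the log2 fold change of clone 1 (0.49, edgeR adjusted p = 0.0706) nor that of the mean of the clones (0.35, SE 0.157, adjusted p = 0.148) was called. With the sample number sets as a block, clone 1 was called (0.66, edgeR adjusted p = 0.0323).

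ATF3 (ENSG00000162772, chromosome 1, 212565334 to 212620777, plus strand), a stress-induced factor that can repress as a homodimer, was at 12.1, 11.4 and 10.8 CPM in the clone 1 libraries and 13.3 and 13.3 CPM in those of clone 2, against 10.8, 8.70 and 9.87 CPM in wild type. The lowest clone 1 library and the highest wild type library were equal at this rounding. The log2 fold change was 0.33 (SE 0.0848, edgeR adjusted p = 0.0163). Clone 2 was called (0.44, adjusted p = 0.0140) and clone 1 was not (0.22, adjusted p = 0.130), and the difference between them was not called (0.22, adjusted p = 0.526). Without wild type replicate 2 the call of the mean was lost (0.24, adjusted p = 0.120), as it was without wild type replicate 3 (0.33, adjusted p = 0.0606). The clone 2 call was lost when either clone 2 library was left out (adjusted p = 0.0911 and 0.0798) or wild type replicate 2 (0.0747).

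BATF3 (ENSG00000123685, chromosome 1, 212686418 to 212699985, minus strand) was at 6.98, 5.79 and 5.90 CPM in the clone 1 libraries and 6.11 and 5.14 CPM in those of clone 2, against 6.32, 5.99 and 6.62 CPM in wild type. The groups overlapped, and the log2 fold change of -0.10 was not called (SE 0.104, edgeR adjusted p = 0.569). MAFF (ENSG00000185022, chromosome 22, 38200767 to 38216511, plus strand) was at 2.33, 2.96 and 3.23 CPM in the clone 1 libraries and 4.16 and 2.59 CPM in those of clone 2, against 2.73, 2.23 and 1.92 CPM in wild type. Its widest gap was between the 2 clone 2 libraries, and the log2 fold change of 0.43 was not called (SE 0.185, edgeR adjusted p = 0.129). Without clone 2 replicate 2 it was called in the mean (0.58, adjusted p = 0.0321) and in clone 2 (0.85, adjusted p = 0.0377, against 0.55 and 0.149 with all libraries).

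The clones share the wild type libraries, so their differences from it are not independent. In clone 1, 3 AP-1 genes were called higher (JUN, JUND and FOSL2) and 0 lower (1 with the GC offset, FOSL1), against 9.37% and 6.64% of all features. In clone 2, 4 were called higher (those and ATF3) and 0 lower, against 6.18% and 4.59%. JUN, JUND and FOSL2 were called higher in both clones, as were 4.42% of all features, and no AP-1 gene was called lower in both (3.09% of features). Between clone 2 and clone 1, edgeR called 0 of the 10, with 2 at an unadjusted p below 0.05 (JUN and FOSL1), while 2.09% of all features were called, 1.10% higher and 0.993% lower in clone 2. DESeq2 also called none of the 10 between the clones.

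The column headers give the libraries sample numbers, 1 to 5 for the wild type libraries and the first library of each clone, and 11 to 13 for the other clone libraries. No wild type library has a number above 5, so the second set gives no value of its own. Within numbers 1 to 5, with 1 library per clone assumed to vary like the others, JUN had a log2 fold change of 1.48 (edgeR adjusted p = 1.65e-05) and FOSL2 1.20 (adjusted p = 7.19e-05). JUND was at 0.42 (adjusted p = 0.000206) and ATF3 at 0.36 (adjusted p = 0.0182), both called, and JUNB at 0.27 was also called (adjusted p = 0.0159). The sources used here do not say what these numbers stand for.

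In the single-end pair, with 1 library per genotype, CPM and ratios were scaled to total counts, without TMM factors. JUN had 197 reads in the knockout library and 110 in the wild type library, or 4.77 and 2.49 CPM. The ratio was 1.92, with an exact 95% interval of 1.51 to 2.44 that covers counting error only. FOSL2 had 255 knockout and 118 wild type reads, a ratio of 2.31 (1.85 to 2.90). These were the only 2 of the 10 genes at least 1.5-fold higher, and none was as much lower. Of 22254 features with enough counts, 9.61% were at least 1.5-fold higher and 3.50% lower.

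JUND was at 36.1 CPM in the single-end knockout library and 27.6 CPM in the wild type one, with a ratio of 1.31 (1.21 to 1.41). JUNB had a ratio of 1.21 (1.08 to 1.35) and ATF3 of 1.23 (1.08 to 1.40), and both intervals lay above 1. BATF3 was at 4.92 CPM in the knockout and 6.73 CPM in the wild type library, a ratio of 0.731 (0.609 to 0.877), and FOSL1 had a ratio of 0.897 (0.811 to 0.991). The intervals of FOS (0.640 to 1.79), FOSB (0.834 to 1.54) and MAFF (0.949 to 1.58) included 1. There is no replicate check on any of these ratios.

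**Figure D2:**
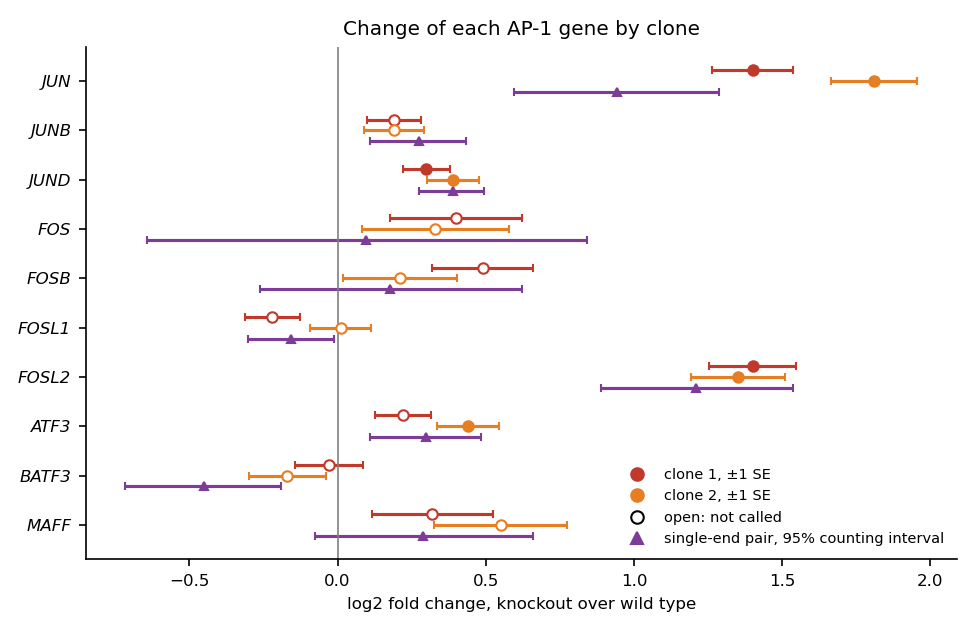
Log2 fold change of each AP-1 gene over wild type in clone 1 and clone 2 (points with 1 SE, filled where called) and in the single-end pair (triangles with 95% counting intervals). JUN (1.40 and 1.81) and FOSL2 (1.40 and 1.35) stand to the right of the other genes in both clones and in the single-end pair.

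Per length, JUND was the most abundant of these mRNAs, at 20.3 RPKM in wild type (CPM per kilobase of annotated exon), and FOS the least, at 0.225 RPKM. In wild type the order was JUND, JUNB (9.61), FOSL1 (9.50), ATF3 (2.42), BATF3 (2.33), JUN (0.682), FOSL2 (0.443), MAFF (0.408), FOSB (0.301) and FOS. The wild type ranges overlapped between JUNB and FOSL1, between ATF3 and BATF3, between FOSL2 and MAFF, and between MAFF and FOSB, so these neighbours cannot be ranked. The order of the means was the same in the mean of the clones, where JUN reached 2.08 RPKM, next to BATF3 at 2.18 RPKM, and FOSL2 reached 1.14 RPKM. With the length of the longest transcript in place of the union of exons, FOSL1 moved above JUNB and MAFF above JUN and FOSL2 in wild type.

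**Figure D3:**
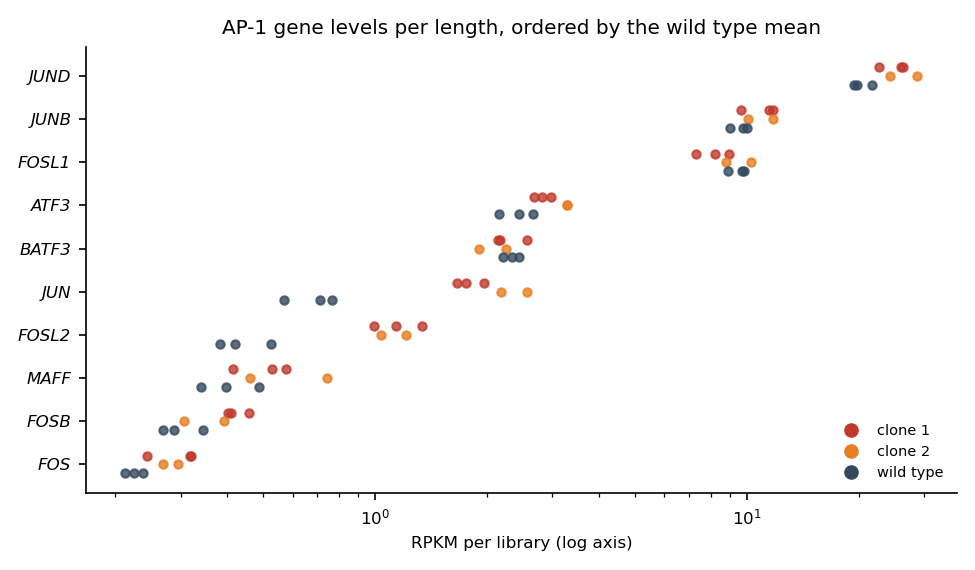
RPKM per library (log axis) of the 10 AP-1 genes, ordered by the wild type mean, with clone 1, clone 2 and wild type on separate lines. JUND lies highest, and JUN and FOSL2 are the genes whose knockout points stand clear of wild type by the widest margin.

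Within the JUN family, JUN made up 4.76% of the summed RPKM in clone 1 and 6.02% in clone 2, against 2.24% in wild type. JUND took 66.2% and 66.5% in the clones and 66.3% in wild type, and JUNB 29% and 27.5%, against 31.4% in wild type. The family sum was 37.8 RPKM in clone 1 and 39.9 RPKM in clone 2, against 30.6 RPKM in wild type. JUND therefore remained the main JUN family mRNA in every library.

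Within the FOS family, FOSL2 made up 11.6% of the summed RPKM in clone 1 and 10.0% in clone 2, against 4.24% in wild type. FOSL1 took 81.2% and 84.4% in the clones and 90.7% in wild type. FOSB (4.22% and 3.07%, against 2.87%) and FOS (2.95% and 2.5%, against 2.15%) held small shares. The family sum was 10.0 RPKM in clone 1 and 11.3 RPKM in clone 2, against 10.5 RPKM in wild type.

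**Figure D4:**
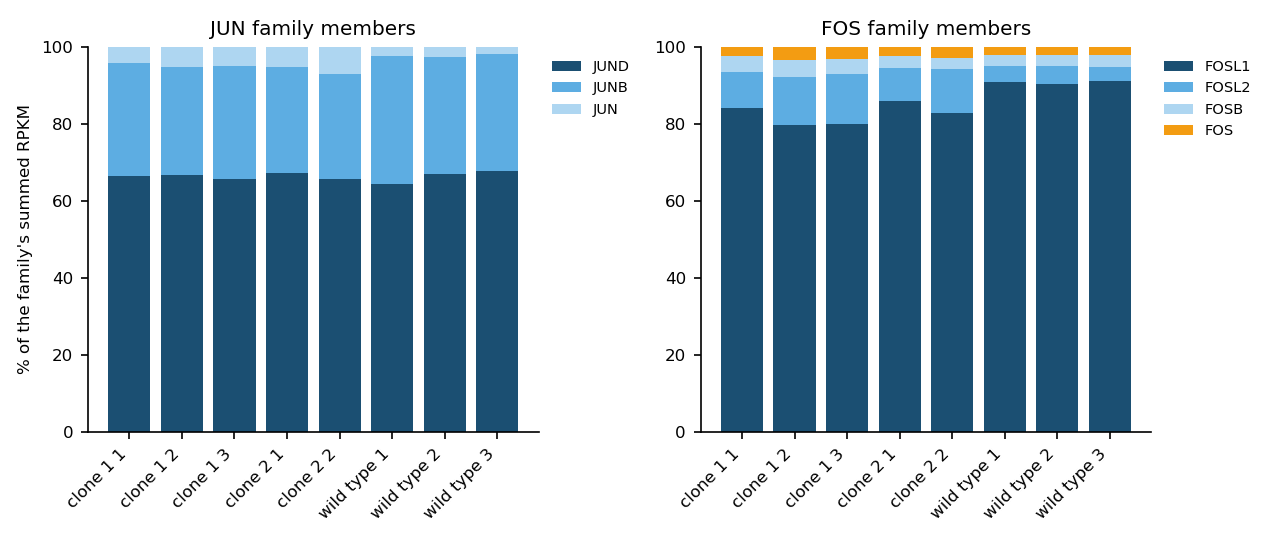
Share of each member in the summed RPKM of its family (percent), per paired-end library, for the JUN family and the FOS family. FOSL1 holds 79.6% to 85.9% of the FOS family in knockout libraries and 90.3% to 91.2% in wild type ones, and FOSL2 takes a larger share in every knockout library.

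Across the 8 paired-end libraries, the genes whose log2 CPM followed JUN most closely, among 14891 genes with a mean of at least 1 CPM, were VCAM1 (Pearson r = 0.991), KLHL29 (0.990), STRA6 (0.988), CAV1 (0.987) and PRDM16 (0.986). Of the AP-1 genes, FOSL2 had r = 0.969 with JUN, while JUND (0.806), ATF3 (0.806) and FOS (0.805) followed less closely. MAFF was at 0.652, JUNB at 0.585 and FOSB at 0.530. FOSL1 (-0.340) and BATF3 (-0.509) had negative values, though neither gene was called in the mean of the clones. These are descriptions over 8 libraries that share 3 groups, so any gene that separates the groups in the same order gives a high value. VCAM1, an adhesion receptor, was at 2.35 CPM in clone 1 and 6.28 CPM in clone 2, against 0.157 CPM in wild type. STRA6, a retinol transporter, was at 8.58 and 12.1 CPM in the clones, against 2.19 CPM in wild type.

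Genes known from the literature as AP-1 targets were listed as well (37 genes, listed with earlier results of these data known), and 24 passed the filter on low counts. Of these 16 were called higher and 1 lower in the mean of the clones by edgeR, and the median log2 fold change was 0.42, beside 9.87% higher, 8.09% lower and a median of 0.00 over all features. In clone 1, 11 were called higher and 1 lower (9.37% and 6.64% of all features). In clone 2, 14 were called higher and 0 lower (6.18% and 4.59%). Between the clones 3 were called, GJA1, CCND1 and KRT8, all higher in clone 2 (1.10% of all features). CD44, an adhesion receptor for hyaluronan, was at 9.55, 8.34 and 8.24 CPM in the clone 1 libraries and 6.78 and 6.89 CPM in those of clone 2, against 1.92, 1.77 and 2.11 CPM in wild type (log2 fold change 1.99, SE 0.113, adjusted p = 7.31e-08). It lay above wild type in every knockout library. GJA1, the gap junction protein connexin 43, was at 9.95 and 10.9 CPM in clone 2, against 0.816 to 0.920 CPM in clone 1 and 0.514 to 0.665 CPM in wild type. It was called in clone 2 (4.10, adjusted p = 1.37e-09) and not in clone 1 (0.52, adjusted p = 0.0807), so its call in the mean of the clones (2.31, SE 0.157, adjusted p = 4.21e-07) rests on clone 2, and it was lost with all knockout libraries as 1 group (adjusted p = 0.210).

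CCND1 (cyclin D1) averaged 4.48 ± 0.186 CPM in clone 1 (SD, n = 3) and 12.6 ± 1.04 CPM in clone 2 (n = 2), against 2.68 ± 0.448 CPM in wild type (n = 3). It was called in clone 1 (0.73, edgeR adjusted p = 0.00250) and in clone 2 (2.22, adjusted p = 1.78e-07), and it was not called with all knockout libraries as 1 group (adjusted p = 0.0976). FN1, fibronectin, was the 1 target called lower. It was at 17.2 ± 1.55 CPM in clone 1 and 21.0 ± 2.10 CPM in clone 2, against 23.4 ± 1.67 CPM in wild type. It was called in clone 1 (-0.44, edgeR adjusted p = 0.00391) and not in clone 2 (-0.16, adjusted p = 0.357). The mean of the clones was called (log2 fold change -0.30, SE 0.0772, adjusted p = 0.0164). That call was lost without wild type replicate 3 (adjusted p = 0.0930) or clone 2 replicate 1 (0.0620). The list shares KRT8 and KRT18 with the epithelial markers and HMOX1 with the heat shock list. The 13 epithelial markers summed to 71.9 to 81.2 CPM in clone 1 and 85.8 to 94.6 CPM in clone 2, against 54.3 to 60.8 CPM in wild type. KRT5 was at 0, and 8 of 13 were below 1 CPM in every library. Of 8 epithelial markers tested, 5 were called higher and 0 lower by edgeR (9.87% and 8.09% of all features). Their part in the result was not tested.

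Other immediate early genes had 39 of 40 members tested, 12 called higher and 2 lower by edgeR (9.87% and 8.09% of all features), with a median log2 fold change of 0.25. ID1, an inhibitor of basic helix-loop-helix factors, averaged 71.9 ± 5.05 CPM in clone 1 and 69.6 ± 4.39 CPM in clone 2, against 53.2 ± 2.23 CPM in wild type (log2 fold change 0.41, adjusted p = 0.000310). Its relative ID2 was at 26.5 and 24.7 CPM in the clones, against 18.5 CPM in wild type (0.47, adjusted p = 0.000797), and the antiproliferative gene BTG2 was at 48.2 and 44.6 CPM, against 36.6 CPM in wild type (0.34, adjusted p = 0.00123). RHOB, a small GTPase, fell, with 0.192 CPM in clone 1 and 0.520 CPM in clone 2, against 1.08 CPM in wild type (-1.75, SE 0.259, adjusted p = 0.000448). Its level was low, at 0.123 to 0.594 CPM in the knockout libraries. The RHOB difference was -2.43 in clone 1 (adjusted p = 0.000228) and -1.06 in clone 2 (adjusted p = 0.0446). NR4A2, an orphan nuclear receptor, was at 15.2 CPM in clone 1 and 10.6 CPM in clone 2, against 16.2 CPM in wild type. It was called lower in the mean (-0.35, adjusted p = 0.00252) and in clone 2 (-0.61, adjusted p = 0.000340), not in clone 1 (-0.10, adjusted p = 0.403), and the call of the mean was lost with all knockout libraries as 1 group (adjusted p = 0.184).

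Of other basic leucine zipper partners, 33 of 37 were tested, and 7 were called higher and 3 lower by edgeR (9.87% and 8.09% of all features), with a median log2 fold change of 0.05. MAF, a large MAF protein, was at 50.0, 41.1 and 40.3 CPM in the clone 1 libraries and 46.6 and 41.2 CPM in those of clone 2, against 16.2, 12.3 and 13.6 CPM in wild type. The difference of 1.64 on the log2 scale (SE 0.107, adjusted p = 3.19e-06) was 1.64 in each clone. BACH2, a repressor that pairs with small MAF proteins, rose by 0.73 on the log2 scale (adjusted p = 0.00905; 0.0594 without wild type replicate 2). JDP2, a JUN dimerization partner, was at 15.6 and 14.7 CPM in the clones, against 12.1 CPM in wild type (0.33, adjusted p = 0.0109). The JDP2 call was lost without wild type replicate 1 (adjusted p = 0.0849) or 3 (0.0599).

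The 3 partners called lower are a share close to that of all features, and each fell by a small amount. CREBZF was at 127 and 124 CPM in the clones, against 141 CPM in wild type (-0.17, edgeR adjusted p = 0.0156), and BACH1 at 24.1 and 26.6 CPM, against 29.4 CPM in wild type (-0.21, adjusted p = 0.0240). With the GC offset neither was called (adjusted p = 0.0807 for CREBZF and 0.290 for BACH1). Both were also lost without wild type replicate 1 (0.0632 for CREBZF and 0.0917 for BACH1), wild type replicate 2 (0.0527 and 0.0940) or clone 2 replicate 1 (0.0760 and 0.0843), and CREBZF without wild type replicate 3 (0.0762). NFE2L2, the oxidative stress factor NRF2, was at 77.3 and 69.5 CPM in the clones, against 84.4 CPM in wild type (-0.20, adjusted p = 0.0392). It was lost without wild type replicate 1 (adjusted p = 0.0965), 2 (0.0890) or 3 (0.151), without clone 2 replicate 1 (0.142), and with all knockout libraries as 1 group (0.0888).

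The kinases and regulators that act on AP-1 proteins had 34 of 35 members tested, with 1 called higher and 2 lower by edgeR and a median log2 fold change of -0.00. Both shares lie below those of all features (9.87% and 8.09%), so the 3 genes are given as single values. MAPK8IP1, a scaffold of the JNK pathway, was at 29.1 ± 2.72 CPM in clone 1 and 30.4 ± 3.98 CPM in clone 2, against 22.2 ± 0.312 CPM in wild type (0.42, adjusted p = 0.00191). FBXW7, the substrate receptor of a ubiquitin ligase that degrades JUN, was at 24.9 and 24.2 CPM in the clones, against 30.0 CPM in wild type (-0.29, adjusted p = 0.00369). MAP2K6, a p38 kinase kinase, was at 6.27 and 6.64 CPM in the clones, against 7.99 CPM in wild type (-0.31, adjusted p = 0.0356). Its call was lost with the GC offset (adjusted p = 0.183), in the fit with the sample number sets as a block (0.0621), without any 1 of the wild type replicates (0.148, 0.0726 and 0.0854) and without either clone 2 library (0.0850 and 0.0699). The count of called members in this list, both directions together, was 13 in the libraries with sample numbers 1 to 5. More of all features were also called in that setting than with all 8 libraries, but the rise was proportionally larger in this list. The called share of the list lay above that of all features in that setting, the reverse of the fit with all 8 libraries. Whether the higher count is specific to this list was not tested.

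Heat shock and handling stress genes had all 18 members tested, 3 called higher and 2 lower by edgeR (9.87% and 8.09% of all features), with a median log2 fold change of 0.04. Their summed level was 10750 to 12673 CPM in clone 1 and 11117 to 11372 CPM in clone 2, against 12914 to 13145 CPM in wild type. HMOX1, heme oxygenase 1, was at 14.0 and 11.8 CPM in the clones, against 8.44 CPM in wild type (0.61, adjusted p = 0.000607). SOCS3, an inhibitor of cytokine signalling, rose by 0.65 on the log2 scale (adjusted p = 0.0151) and the cochaperone DNAJB4 by 0.26 (adjusted p = 0.0180). HSP90AA1, a cytosolic chaperone, was at 3366 and 3112 CPM in the clones, against 4000 CPM in wild type (-0.31, adjusted p = 0.00352), and HSPE1 fell by 0.23 on the log2 scale (adjusted p = 0.0224). The SOCS3 call was lost without wild type replicate 2 (adjusted p = 0.0664) or 3 (0.0687). The DNAJB4 call was lost without wild type replicate 2 (0.102) or 3 (0.104), and that of HSPE1 without wild type replicate 1 (0.136) or 3 (0.0638). Both were also lost when clone 2 replicate 2 was left out (0.0535 for DNAJB4 and 0.0704 for HSPE1). The sample number block ended the calls of SOCS3 (0.0576), DNAJB4 (0.0972) and HSPE1 (0.143), and numbers 1 to 5 alone those of DNAJB4 (0.0970) and HSPE1 (0.0830). The part of handling stress in the AP-1 results was not tested.

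**Figure D5:**
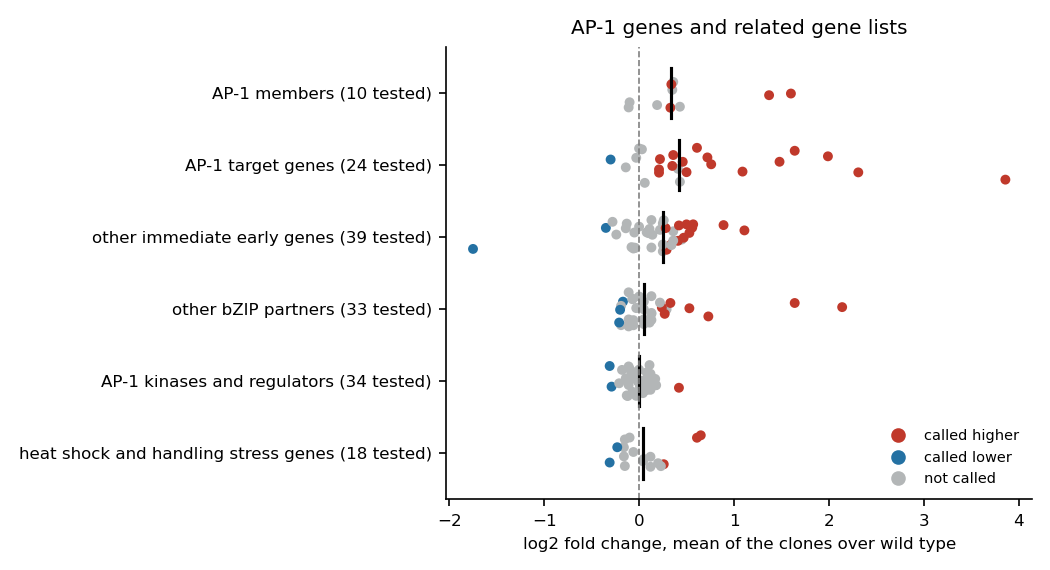
Log2 fold change of the mean of the clones over wild type for each tested member of the AP-1 genes and 5 related lists, with called members coloured and black lines at list medians. The median is 0.34 for the AP-1 genes and 0.42 for their listed targets, and lies near 0 for the other zipper partners, the regulators and the heat shock genes.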

How the data were processed

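Per the submitters' processing notes, the authors used STAR 2.5.2a and the build hg38 (GRCh38), and they counted them with TEToolkit, per the names of the deposited tables. The deposited values are raw counts, in 2 tables (8 paired-end libraries, and the single-end pair) with 58051 gene rows and 1187 repeat rows each. The sources used here do not give the counter's version, strand setting, treatment of multiply mapped reads or annotation. Libraries were stranded mRNA libraries, per the labels' protocols. The labels do not say that replicates were separate cultures, so p-values measure a spread that may be technical. Replicates differed beyond sampling noise (chi-square per degree of freedom 4.54 to 22.1 within groups).

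Counts were filtered with filterByExpr, leaving 20747 features, scaled with TMM and tested with edgeR 4.0.16 in R 4.3.3 (quasi-likelihood F test, robust, group means over 8 libraries). P-values were adjusted over all features (Benjamini-Hochberg) and called below 0.05. The mean of the clones weights both equally. SEs are the size of the log2 fold change over the root of the F statistic. RPKM used the union of GENCODE 29 exons. The single-end pair was not tested, and its CPM and ratios were scaled to total counts without TMM factors. Its features needed at least 20 counts in the pair, folds used a prior count of 2, and intervals are exact at 95% and cover counting error only. The 10 genes, the related lists and the tests were chosen with earlier results of these data known. Named genes were the 10, RBM4, up to 3 list members per direction with the smallest p, and the 5 genes most like JUN. Alternatives were RLE scaling, TMM from genes, no filter, DESeq2 1.42.0, leaving out each library, replicate and sample number blocks, a GC offset, all knockout libraries as 1 group and, chosen after seeing the data, sample numbers 1 to 5. The code was tested on simulated data.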

Additional observations from a re-analysis of the deposited data

Results flagged for a closer look

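GJA1 differed between the clones: it averaged 10.4 ± 0.656 CPM in clone 2 (SD, n = 2) and 0.867 ± 0.0524 CPM in clone 1 (n = 3), a difference of 3.57 on the log2 scale (edgeR adjusted p = 4.29e-09). CCND1 likewise averaged 12.6 CPM in clone 2 and 4.48 CPM in clone 1, a difference of 1.49 (edgeR adjusted p = 1.05e-05). NR4A2 averaged 10.6 CPM in clone 2 and 15.2 CPM in clone 1, a difference of -0.51 (edgeR adjusted p = 0.00380). Both clones are set against the same wild type libraries, and each is a single line, so a difference between clones cannot be told apart from other differences between lines. None of the 10 AP-1 genes differed between the clones by this test.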

How the results depend on the processing

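JUN (1.46 to 1.68), FOSL2 (1.20 to 1.50) and JUND (0.17 to 0.43) were called in all 18 alternatives and ATF3 (0.24 to 0.40) in 16. The cause of the changes below was not tested. Leaving out 1 library in turn gave 1847 to 4251 features called for the mean of the clones (1847, 2217 and 2443 without wild type replicates 1, 2 and 3), 1605 to 3229 for clone 1 (1605 and 1928 without wild type replicates 1 and 2), 1033 to 2747 for clone 2 (1268 without wild type replicate 1, 1033 and 1449 without clone 2 replicates 1 and 2) and 224 to 418 between the clones (284 and 224 without clone 2 replicates 1 and 2). Between the clones 688 were called with no filter and 224 with sample numbers 1 to 5. For the mean of the clones, these leave-one-out ranges were 0.12 to 0.23 for JUNB (0.23 and called, edgeR adjusted p = 0.0498, without clone 1 replicate 2), 0.24 to 0.40 for ATF3, and 0.24 to 0.58 for MAFF.

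Replicate numbers did not pair the samples (correlations of same-numbered libraries -0.233 to 0.253). With the replicate block JUNB was called (0.21, edgeR adjusted p = 0.0384), as it was with the sample number block (0.28, 0.0431) and sample numbers 1 to 5 (0.27, 0.0159). The block gave 6 called AP-1 regulators, and with a GC offset added it gave 6 called zipper partners and FOSL1 at -0.26 (adjusted p = 0.0317).

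FOSL1 was 0.02 with the sample number block and with numbers 1 to 5, and -0.25 (adjusted p = 0.0257) with the GC offset. BATF3 was 0.05 and 0.04 in the first pair of these settings. MAFF was called with no filter (0.44, edgeR adjusted p = 0.0356; clone 2 0.55, 0.0373), without clone 2 replicate 2 (0.58, 0.0321), and in clone 2 with numbers 1 to 5 (0.85, 0.0145). FOSL1 in clone 1 was -0.38 (0.00772) with the replicate block and GC offset. Counts of called list members, above and below, merge both directions. The main fit called 3725 of all features for the mean of the clones. More were called with TMM from genes, no filter, either block alone and numbers 1 to 5. Fewer were called with the GC offset and with all knockout libraries as 1 group. Whether a change in a count is specific to its list was not tested. The zipper partners called were 5 with the GC offset and 3 to 12 leaving out a library (3, 4 and 5 without wild type replicates 1, 2 and 3, 4 without clone 2 replicate 1). The regulators called were 5 with TMM from genes and with all knockout libraries as 1 group, 6 with no filter, 10 with the sample number block, 13 with numbers 1 to 5, and 2 to 6 leaving out a library (5 and 6 without clone 1 replicates 1 and 2). Their called share lay above that of all features with the sample number block and with numbers 1 to 5. It lay below with the replicate block, as in the main fit. Targets ranged from 14 to 17, immediate early genes from 9 to 16 (9 without wild type replicate 1 or 2) and heat shock genes from 2 to 8 (3 and 2 without wild type replicates 2 and 3, 8 without clone 1 replicate 1, 3 without clone 2 replicate 2).

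Small uncalled differences changed sign. Between the clones, JUNB was 0.00 with RLE and with TMM from genes, 0.03 with the replicate block, the GC offset and numbers 1 to 5, 0.02 with the block and GC offset, and -0.11 to 0.11 leaving out a library. Likewise FOS was 0.13 with numbers 1 to 5 and -0.18 to 0.00 leaving out a library, FOSL2 0.01 with the sample number block, 0.05 with numbers 1 to 5 and -0.16 to 0.07, JUND -0.03 to 0.20, and MAFF -0.13 to 0.54. FOSL1 in clone 2 was -0.00 with TMM from genes, -0.12 with the GC offset, -0.13 with the replicate block and GC offset, and -0.11 to 0.11 leaving out a library. BATF3 in clone 1 was 0.14 with the sample number block and with numbers 1 to 5, and -0.12 to 0.03 leaving out a library. Depth limits FOS most, with 26 to 57 reads per library.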

Other observations

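Other genes of the AP-1 target list, picked here after their values were seen, were among those called higher by edgeR in the mean of the clones. THBS1, the matrix glycoprotein thrombospondin 1, was at 7.76, 13.4 and 13.1 CPM in the clone 1 libraries and 13.3 and 19.8 CPM in those of clone 2, against 0.736, 1.11 and 1.02 CPM in wild type (log2 fold change 3.86, SE 0.294, adjusted p = 9.20e-05). No other of the 24 tested targets had a higher fold change. PLAUR, the urokinase receptor, was at 4.73 and 6.80 CPM in the clones, against 3.44 CPM in wild type (0.72, adjusted p = 0.000786), while PLAU, its ligand, was not called (0.43, adjusted p = 0.316). The metallothionein genes MT2A (0.35, adjusted p = 0.00156) and MT1X (0.46, adjusted p = 0.000955) and the quinone reductase gene NQO1 (0.36, adjusted p = 0.00294) rose by similar small amounts. VEGFA (0.03, adjusted p = 0.798), HBEGF (0.06, adjusted p = 0.805) and CDKN1A (0.00, adjusted p = 1.00) were not called.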
